A study of Mus musculus with 6 samples.

Results

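The proximal stretch of mouse chromosome 13, from the first annotated genes to 30000000 bases (GRCm38), was described in MSTN-KO and WT cells. Its members were selected on measured values: genes that start in this stretch in the GENCODE M21 annotation and had at least 1 FPKM (fragments scaled by exon length and by the library's mapped fragments) in at least 1 library. Histone genes (symbols starting with Hist) and *Idi1*, *Pfkp*, *Nid1*, *Actn2* and *Inhba* were left out by the rule. This gave 57 members, of 10837 genes that passed the same minimum anywhere in the genome and 14548 gene identifiers in the files. Of the 57 members, 55 were protein coding and *Gm2399* and *Vdac3-ps1* were pseudogenes. The files held 137 genes of the stretch, of which the rule left out 51 by name (46 of them histone genes) and 29 stayed under 1 FPKM in every library. The stretch was also proposed with the contrast of MSTN-KO and WT known, so the counts and medians that follow describe it and test nothing.

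RNA-seq had been done on C2C12 cells, a myoblast line from the mouse that can fuse into muscle fibers, grown in DMEM with fetal bovine serum. There were 3 libraries of the WT genotype and 3 of the MSTN-KO genotype, for which CRISPR/Cas9 had been aimed at exon 3 of *Mstn*. *Mstn* encodes myostatin, a secreted restraint on muscle growth. The knockout line, C11, is the only one sequenced, so the genotype and the line cannot be told apart, and the labels give C11 as strain for the WT libraries too. Nothing states that the 3 libraries of a group came from separate cultures, so p-values measure only the spread between these libraries, which may be technical.

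Neighboring genes on a chromosome lie in the same chromatin and can share regulatory elements, but need have no function in common. Proximal chromosome 13 of the mouse is known for families that arose by local duplication, among them the aldo-keto reductases that act on steroids, the prolactin family of the placenta, a large histone cluster and many zinc finger genes. Between these families lie housekeeping genes for vesicle traffic, the proteasome, ribosome assembly and mitochondria.

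*Mstn* itself had 0.0211, 0 and 0.0399 FPKM in WT, against 0.0269, 0.0586 and 0.039 FPKM in MSTN-KO (replicates in order, as for all values below), too low to check the labels. The FPKM values of a library summed to between 723705 and 764524 in WT and between 856314 and 999579 in MSTN-KO. Depth relative to WT replicate 1, read from genes under 0.1 FPKM, lay between 0.857 and 1.11, and the number of fragments is unknown. The myoblast markers were present, with summed values of 1034 to 1378 FPKM in WT and 574 to 703 FPKM in MSTN-KO, and of the 6 tested 3 were lower (*Myod1*, *Des* and *Chrna1*) and 1 higher (*Pax7*). Summed markers of endothelium, fat cells and neurons reached at most 0.167, 0.0639 and 0.58 FPKM in any library, and those of leukocytes 2.39 FPKM. Among the epithelial markers *Krt14* carried nearly all of a sum of 24.7 to 52.1 FPKM. A list of 20 genes outside the stretch, which rise as myoblasts differentiate, was lower in MSTN-KO in all 17 genes tested. Its median log2 fold change was -2.61, where 50.1% of all genes tested had a log2 fold change below 0. Its summed values were 1338, 1405 and 427 FPKM in WT replicates 1, 2 and 3 and 71.3, 99.2 and 123 FPKM in MSTN-KO, so WT replicate 3 stood apart, and their part in the results on chromosome 13 was not tested.

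The sequence upstream of the start site is shown for the members whose values open the account below. They are *Akr1e1*, *Cmah*, *Larp4b* and *Gdi2*, 4 of the 6 members with a log2 fold change beyond -1, the transcription factor gene *Klf6*, and the interval between the start sites of *Mrpl32* and *Psma2*. All were read from the RefSeq promoter table (build GRCm38.p6). Each run ends at the base before the start site and was cut short where an annotated exon begins. Capitals mark CCAAT or its complement ATTGG (the CCAAT box), CCGGAAG (the ETS core) and CAGCTG (the E-box of the MyoD type). The intervals are chr13:4609175-4609333 (minus strand) for *Akr1e1*, chr13:24327154-24327403 (plus) for *Cmah*, chr13:9093631-9093880 (plus) for *Larp4b*, chr13:3537825-3538062 (plus) for *Gdi2*, chr13:5861239-5861481 (plus) for *Klf6* and chr13:14613166-14613239 (plus) for *Mrpl32*/*Psma2*.
Akr1e1: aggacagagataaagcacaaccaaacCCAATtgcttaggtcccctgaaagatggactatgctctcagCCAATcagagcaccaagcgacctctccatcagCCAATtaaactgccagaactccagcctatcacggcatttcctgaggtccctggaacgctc
Cmah: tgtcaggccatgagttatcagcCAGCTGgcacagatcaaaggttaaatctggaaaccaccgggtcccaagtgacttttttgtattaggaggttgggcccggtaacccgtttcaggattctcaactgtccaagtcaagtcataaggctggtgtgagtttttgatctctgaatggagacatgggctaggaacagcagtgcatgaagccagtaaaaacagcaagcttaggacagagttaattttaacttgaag
Larp4b: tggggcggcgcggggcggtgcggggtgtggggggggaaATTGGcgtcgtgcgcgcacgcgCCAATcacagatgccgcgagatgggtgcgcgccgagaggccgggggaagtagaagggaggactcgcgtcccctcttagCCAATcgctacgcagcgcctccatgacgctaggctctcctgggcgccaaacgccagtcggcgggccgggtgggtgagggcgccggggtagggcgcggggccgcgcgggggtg
Gdi2: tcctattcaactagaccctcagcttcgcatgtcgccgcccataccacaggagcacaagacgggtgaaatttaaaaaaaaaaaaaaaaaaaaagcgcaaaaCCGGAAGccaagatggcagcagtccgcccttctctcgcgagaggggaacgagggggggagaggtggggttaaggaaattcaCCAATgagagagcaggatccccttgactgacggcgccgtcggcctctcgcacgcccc
Klf6: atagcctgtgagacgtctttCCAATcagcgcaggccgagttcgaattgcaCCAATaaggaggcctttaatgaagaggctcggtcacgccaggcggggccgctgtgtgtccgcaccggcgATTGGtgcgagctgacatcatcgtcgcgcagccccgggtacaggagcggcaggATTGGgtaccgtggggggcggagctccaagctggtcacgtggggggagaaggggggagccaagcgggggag
Mrpl32/Psma2: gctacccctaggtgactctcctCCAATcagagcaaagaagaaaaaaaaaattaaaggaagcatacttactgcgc

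The promoter table held entries for 42 members, with 50 start sites, of 32851 start sites for all genes. In windows from 250 bases before to 50 bases after the start, read on both strands, CCAAT was in 48% of the member start sites and 37.4% of all start sites. The ETS core CCGGAAG was in 20% (10 sites) against 8.86%, and the NRF1 core GCATGCGC in 6% (3 sites) against 2.71%. TATAAA was in 2% (1 site) against 13.6% and CAGCTG in 10% (5 sites) against 16.3%. The members had passed the FPKM minimum, while the start sites of all genes were not filtered by expression. The shares therefore compare unlike sets and do not single out the stretch. No motif contains another, and a match is a description of the letters, not a binding site. The GC content of the upstream runs shown ranged from 41.9% (*Mrpl32*/*Psma2*) to 74% (*Larp4b*). An upstream run of *Prl2c5* was read as well but is not shown. It had a GC content of 36.5% and none of these motifs.

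Most members were lower in MSTN-KO than in WT cells. The log2 fold change, on the log2(FPKM + 1) scale, was below 0 for 54 of the 57 members, with a median of -0.75 (quartiles -0.88 and -0.56, range -1.8 to 1.0) and a median standard error of 0.17. Over all 10837 genes tested the median was 0.00 and 50.1% were below 0. With an adjusted p under 0.05 (limma, Benjamini-Hochberg over all genes tested), 43 members (75.4%) were lower, where 8.96% of all genes were lower. No member was higher, where 8.78% of all genes were, and *Akr1c14* alone was higher at an unadjusted p under 0.05. In cell cultures, fewer cells of a type and less RNA per cell cannot be told apart.

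All 3 MSTN-KO values were below all 3 WT values for 45 members (78.9%), against 18.1% of all genes tested, and the opposite order held for none, against 19.3%. By the criteria named in the study's methods (p under 0.05 without adjustment, log2 fold change beyond 1 in size), 6 members (10.5%) were lower, against 2.3% of all genes, and none was higher, against 1.21%. These 6 were *Akr1e1*, *Cmah*, *Larp4b*, *Ggps1*, *Gdi2* and *Tdp2*. The count was 10 without MSTN-KO replicate 2 and 2 without MSTN-KO replicate 3. With a pseudocount of 0.1 it was 21 lower and 1 higher, and with scaling of each library to a sum of 1000000 it was 28 lower. Of the 57 members, 50 reached 1 FPKM in both groups, 6 in WT only (*Asb13*, *Akr1c13*, *Akr1e1*, *Ero1lb*, *Lyst* and *Cmah*) and 1 in MSTN-KO only (*Akr1c14*). Those 7 passed the minimum through the group in which they were high, so their direction is not independent of it. *Akr1c13*, *Akr1e1*, *Cmah* and *Ero1lb* are still counted among the members called lower. *Akr1e1* and *Cmah* are also counted among the 6 by the study's criteria.

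**Figure D1:**
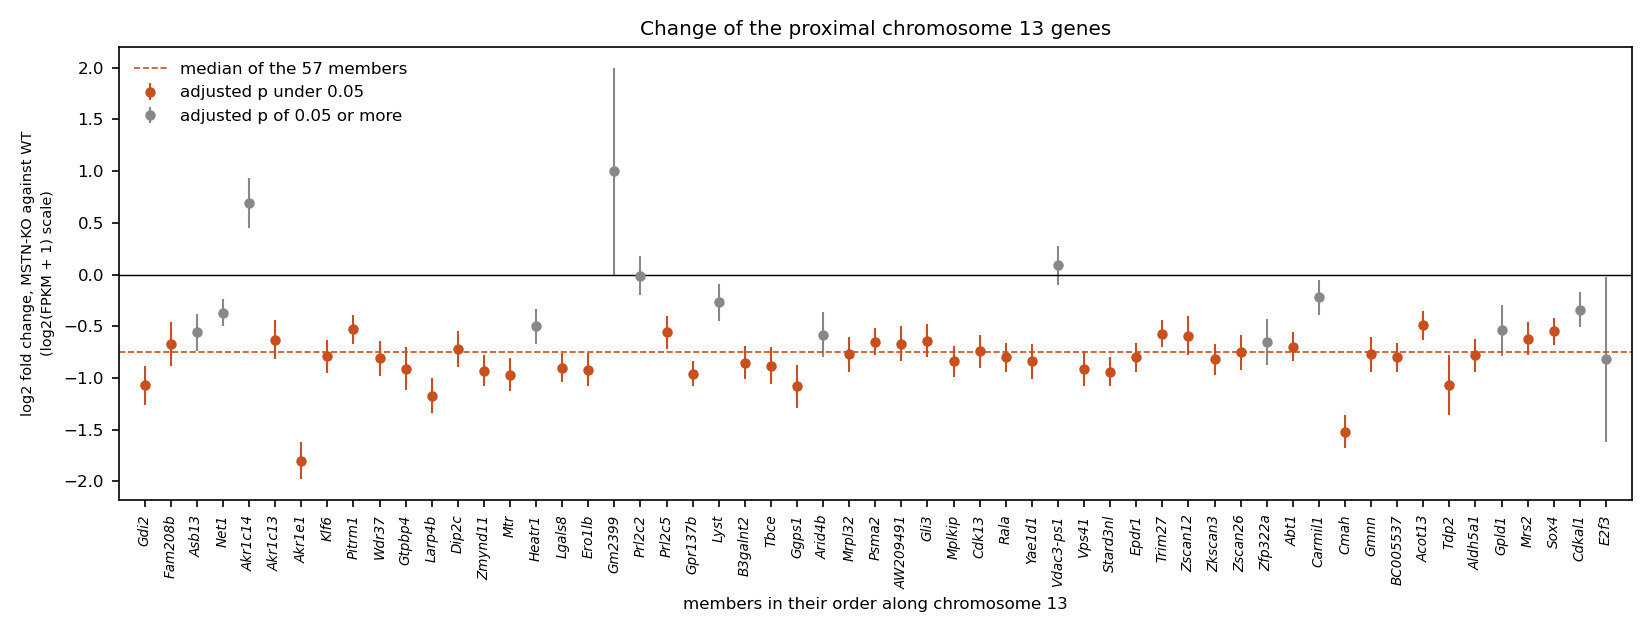
Log2 fold change of MSTN-KO against WT (vertical axis, log2(FPKM + 1) scale) for the 57 members in their order along chromosome 13 (horizontal axis). Points are limma estimates, bars are ± 1 standard error, and orange marks an adjusted p under 0.05 over all genes tested. Most points lie near the dashed median of -0.75, *Akr1e1* and *Cmah* lie lowest, and 3 members lie above 0.

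The shift was of similar size in each MSTN-KO library. The median deviation of the members from their WT mean was -0.66, -0.70 and -0.89 in MSTN-KO replicates 1, 2 and 3, and -0.07, -0.01 and 0.07 in the WT replicates, on the log2(FPKM + 1) scale. For all genes tested it lay between -0.02 and 0.04 in the 6 libraries. In MSTN-KO replicates 1, 2 and 3, 55, 53 and 53 members were below their WT mean. The pseudocount of 1 makes the fold change of low genes smaller, so the ratio itself was also taken for the 29 members with a mean of at least 5 FPKM. Their median ratio to the WT mean was 0.570, 0.580 and 0.535 in the MSTN-KO replicates and 0.909, 1.03 and 1.05 in the WT replicates. All genes of that level had median ratios between 0.978 and 1.07.

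Taken over the group means, these 29 members stood at a median of 57.5% of WT (quartiles 50.6% and 67.5%, range 39.6% to 102%), where all 7813 genes of that level stood at 104%. Between 40% and 75% of WT lay 24 of the 29. The median was 47.1% of WT for the 13 members with a mean under 2 FPKM, 48.1% for the 15 from 2 to 5 FPKM, 51.2% for the 11 from 5 to 20 FPKM and 59.6% for the 18 above 20 FPKM. Called lower were 5 of 13, 14 of 15, 10 of 11 and 14 of 18 members in the same order. Without *Prl2c2*, the member with the highest level, the members summed to 953, 1147 and 1085 FPKM in WT and 581, 690.1 and 593 FPKM in MSTN-KO.

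**Figure D2:**
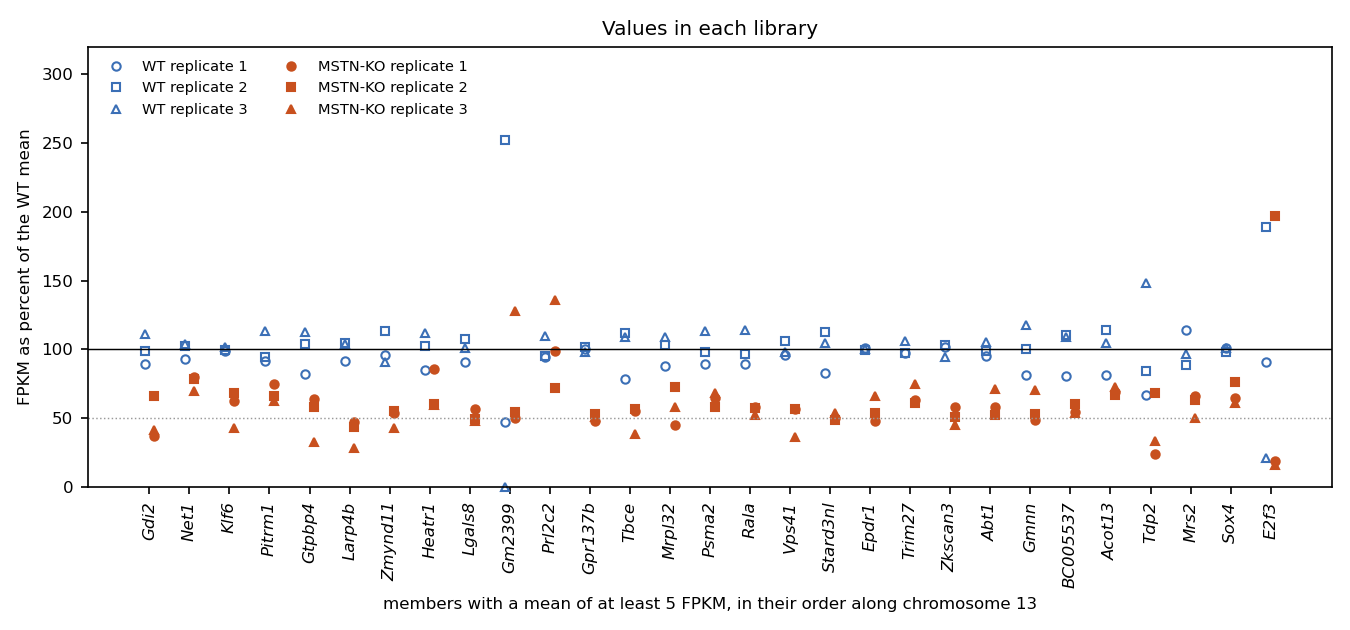
FPKM in each library as percent of the gene's WT mean (vertical axis, linear) for the 29 members with a mean of at least 5 FPKM, in their order along chromosome 13 (horizontal axis). Open blue symbols are the 3 WT libraries and filled orange symbols the 3 MSTN-KO libraries, with lines at 100% and 50%. For 24 of the 29 members every MSTN-KO symbol lies below every WT symbol, and *Gm2399*, *E2f3* and *Tdp2* show a wide spread.

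Members with low values lay in all 3 windows of the stretch. In successive windows of 10 Mb, the members with a mean of at least 5 FPKM stood at a median of 51.7% (7 genes), 56.1% (12 genes) and 60.3% (10 genes) of WT. The median log2 fold changes of all members in these windows were -0.76, -0.80 and -0.67, and 78.6%, 76% and 72.2% of them were called lower. Between 25 and 30 Mb, only 1 of 3 members was called lower. It was *Sox4*, with an adjusted p of 0.011 (0.054 without MSTN-KO replicate 1, limma), and the others were *Cdkal1* and *E2f3*. Beyond the stretch the 9 later windows had medians between 77% and 84.9% of WT, and between 15.2% and 36.4% of their genes were called lower. The 306 genes tested on the rest of chromosome 13 had a median log2 fold change of -0.32 and stood at 80.6% of WT, with 22.9% called lower. The other chromosomes together stood at 104% of WT, with 8.16% of their genes called lower. Of these, only chromosomes 14 and 1 were also summarized singly. At 82.4% and 83.9% of WT, they were close to the rest of chromosome 13 and above the members, and do not stand for the other chromosomes. Members on the plus strand (26) and the minus strand (31) had median log2 fold changes of -0.64 and -0.78. The members were longer than all genes tested (median exon length 5415 against 4454 bases), lower in GC content (45.6% against 50.4%) and lower in mean level (median 5.65 against 11.8 FPKM). With a correction of each library for length and GC content their median log2 fold change was -0.64.

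**Figure D3:**
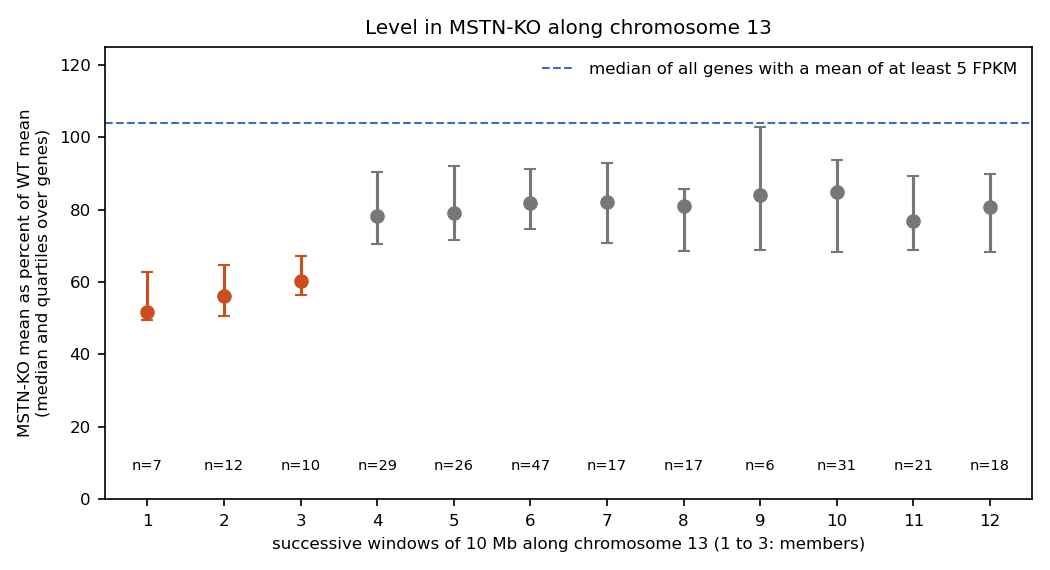
MSTN-KO mean as percent of the WT mean (vertical axis, linear) in successive 10 Mb windows of chromosome 13 (horizontal axis, window number) for genes with a mean of at least 5 FPKM. Points are medians over genes, bars reach the quartiles, n is the number of genes, and the dashed line is the median of all genes (104%). Windows 1 to 3, in orange, hold the members and lie at 51.7%, 56.1% and 60.3%, and the later windows lie between 77% and 84.9%.

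Around the end of the stretch the values varied from gene to gene. The last members, *Cdkal1* (a tRNA-modifying enzyme) and *E2f3*, had log2 fold changes of -0.34 (adjusted p = 0.187, limma) and -0.82 (adjusted p = 0.506). The first gene tested after the limit, *Mboat1*, a lysophospholipid acyltransferase gene, had 13.2, 11.7 and 11.7 FPKM in WT and 7.21, 7.26 and 7.32 FPKM in MSTN-KO, or 59.5% of WT. *Uqcrfs1*, which encodes a subunit of respiratory complex III, followed at 91.4%, *Dusp22* at 78.7% and *Exoc2* at 70.2% of WT. At the border of the first windows, *Dip2c* stood at 48.1% and *Zmynd11* at 50.5% of WT on one side, and *Mtr* at 39.1% and *Heatr1* at 68.7% on the other. At the next border *Stard3nl* and *Epdr1* stood at 50.6% and 56.3%, and *Trim27* and *Zscan12* at 66.2% and 51.6%. With respect to the FPKM minimum, *Akr1c13* and *Lyst* just passed it, with maxima of 1.0 and 1.11 FPKM, and *Zkscan8* and *Sfrp4* just missed it, with 0.963 and 0.959 FPKM. Of the named genes left out, *Pfkp*, *Nid1*, *Inhba* and *Idi1* had log2 fold changes of -1.04, -1.06, -0.91 and -0.61, and *Actn2* had at most 0.423 FPKM in WT and was listed at 0 in MSTN-KO. The histone genes of the stretch, the larger group left out, did not share the low values of the members: of 43 tested, 11 were below 0, 4 were called lower and 10 higher, and their median log2 fold change was 0.43. That median was 0.28 with scaling to a sum of 1000000 and 0.18 with the correction for length and GC content, where 6 were called lower and 4 higher. The 14 histone genes with a mean of at least 5 FPKM stood at a median of 152% of WT.

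The members were also described by lists of gene roles. *Abt1*, *Cdk13*, *E2f3* and *Trim27* were shared between lists, so the counts are not separate results. Each count stands beside the 75.4% of all members and 8.96% of all genes tested that were called lower. Vesicle traffic, small GTPases and the cytoskeleton were represented by 9 tested members, of which 6 were called lower, with a median log2 fold change of -0.81. *Gdi2*, which holds Rab GTPases in their inactive form in the cytosol, had 86.5, 96.0 and 108 FPKM in WT and 36.1, 64.0 and 40.2 FPKM in MSTN-KO. There was no overlap, and MSTN-KO replicate 2 was nearest to WT. The log2 fold change of *Gdi2* was -1.07 ± 0.19 (standard error, n = 3 per group, adjusted p = 0.00181, limma). *Gpr137b*, a lysosomal membrane protein, had 42.1, 42.6 and 41.1 FPKM in WT and 20, 22.2 and 21.3 FPKM in MSTN-KO. The libraries of each group lay close together, and the log2 fold change was -0.96 ± 0.12 (adjusted p = 0.00015, limma). *Stard3nl*, which tethers late endosomes to the endoplasmic reticulum, had 39.2, 53.3 and 49.6 FPKM in WT and 23.6, 23 and 25.4 FPKM in MSTN-KO (log2 fold change -0.94). Genes for the Ras-like GTPase *Rala* and for *Vps41*, a subunit of the complex that fuses vesicles with lysosomes, stood at 56% and 50% of WT, and *Wdr37* at 42.2%. The other 3 of this list were not called. *Net1* had 23.0, 25.3 and 25.7 FPKM in WT against 19.8, 19.4 and 17.2 FPKM, without overlap (log2 fold change -0.37, adjusted p = 0.0602, limma). *Lyst*, a regulator of lysosome size, and *Carmil1*, a regulator of actin capping, overlapped between the groups, with log2 fold changes of -0.27 and -0.22.

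Members for the proteasome, ubiquitin and protein folding numbered 5, of which 4 were called lower, with a median log2 fold change of -0.65. *Psma2*, an alpha subunit of the core proteasome, was the member with the second highest mean. It had 179.9, 198 and 229 FPKM in WT and 130.1, 117 and 138 FPKM in MSTN-KO, with a log2 fold change of -0.65 ± 0.13 (adjusted p = 0.00476, limma). Every MSTN-KO library was below the lowest WT library. *Ero1lb*, an oxidase for disulfide bonds in the endoplasmic reticulum, stood at 30.8% of WT, with 2.41, 1.93 and 2.09 FPKM in WT and 0.579, 0.763 and 0.636 FPKM in MSTN-KO. It reached 1 FPKM in WT only. *Tbce*, a folding cofactor of tubulin, stood at 50.1% of WT. *Trim27*, a ubiquitin ligase, stood at 66.2% (adjusted p = 0.0105, and 0.0521 without MSTN-KO replicate 1, limma). *Asb13*, an adaptor of a ubiquitin ligase, had no overlap between groups but an adjusted p of 0.0526 (0.0476 without MSTN-KO replicate 1, limma).

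Of the 8 members for RNA, ribosomes and translation, 6 were called lower and the median log2 fold change was -0.81. *Larp4b*, an mRNA-binding protein of the La-related family, had 9.52, 10.9 and 10.8 FPKM in WT and 4.88, 4.51 and 2.96 FPKM in MSTN-KO. This was 39.6% of WT, the lowest share among the 29 members with a mean of at least 5 FPKM, with a log2 fold change of -1.17 ± 0.17 (adjusted p = 0.000532, limma). *Mrpl32*, a protein of the large mitochondrial ribosomal subunit, had 35.2, 41.1 and 43.4 FPKM in WT and 18, 29 and 23.1 FPKM in MSTN-KO. The groups did not overlap (log2 fold change -0.77). *Gtpbp4*, a GTPase of large ribosomal subunit assembly, stood at 51.7%, *Abt1*, an activator of basal transcription, at 60.7%, *Mplkip* at 48.9% and *Yae1d1* at 47% of WT. *Heatr1*, which acts in ribosomal RNA synthesis and processing, had 9.35, 11.3 and 12.3 FPKM in WT and 9.42, 6.67 and 6.54 FPKM in MSTN-KO. MSTN-KO replicate 1 lay within the WT values, and its adjusted p was 0.0571 (0.0315 without that library, limma).

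*Mrpl32* and *Psma2* lie head to head on opposite strands with their start sites 75 bases apart, on either side of the interval printed above, and their log2 fold changes (-0.77 and -0.65) differed by 0.12. *Acot13* and *Tdp2* were the only other such pair within 1000 bases whose genes do not overlap. Their start sites were 139 bases apart, and their log2 fold changes were -0.49 and -1.07. Not searched were pairs that overlap at their start sites. One of these was *Ggps1* and *Arid4b*, on opposite strands, with log2 fold changes of -1.08 and -0.58. The 4 members of the pairs that do not overlap made up 7.02% of the 57. Of all genes tested, 9.39% lay in a pair of that kind with another tested gene. Pairs that overlap are in neither share. *Tdp2*, which removes trapped topoisomerase II from DNA, had 5.47, 6.9 and 12.1 FPKM in WT and 1.96, 5.55 and 2.72 FPKM in MSTN-KO. MSTN-KO replicate 2 lay just above WT replicate 1, so the groups overlapped, and the adjusted p of 0.0221 rose to as much as 0.109 when a library was left out (limma, not called without WT replicate 3, MSTN-KO replicate 1 or MSTN-KO replicate 3). *Acot13*, a thioesterase of mitochondria, stood at 69.6% of WT (adjusted p = 0.0309, limma). It was called only without WT replicate 1 among the 6 omissions of a library, and its adjusted p reached 0.172 without WT replicate 2.

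Transcription and chromatin were represented by 13 members, all with log2 fold changes below 0 (median -0.70), of which 10 were called lower. *Klf6*, a zinc finger factor induced by growth and injury signals, had 38.2, 38.5 and 39.4 FPKM in WT and 24.1, 26.3 and 16.6 FPKM in MSTN-KO. The WT libraries were nearly equal, and MSTN-KO replicate 3 was lowest (log2 fold change -0.79 ± 0.16, adjusted p = 0.00476, limma). *Zmynd11*, a reader of methylated histone H3.3, stood at 50.5% of WT, with 20.6, 24.4 and 19.6 FPKM in WT and 11.6, 11.9 and 9.21 FPKM in MSTN-KO. *Sox4*, a developmental factor of the Sox family, stood at 67.5% of WT, with 33.2, 32.1 and 33.1 FPKM in WT and 21.1, 25.1 and 20.1 FPKM in MSTN-KO. Its adjusted p was 0.011, and 0.054 without MSTN-KO replicate 1 (limma). *Gm26735*, which overlaps *Sox4* on the opposite strand, was identical to it over 54.6% of the *Sox4* transcript, so reads may be shared. *Gli3*, an effector of Hedgehog signaling, stood at 57.7% of WT (adjusted p = 0.0181, and up to 0.0664 without 1 library, not called without WT replicate 1, WT replicate 2 or MSTN-KO replicate 3, limma). *Cdk13*, a kinase of RNA polymerase II, stood at 53.6%.

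The zinc finger genes with a SCAN domain near the histone cluster were *Zkscan3*, a repressor of autophagy genes, *Zscan26* and *Zscan12*. *Zkscan3* had 7.6, 7.74 and 7.09 FPKM in WT and 4.34, 3.8 and 3.35 FPKM in MSTN-KO, or 51.2% of WT. *Zscan26* stood at 48.1% (adjusted p = 0.00805, and 0.0513 without WT replicate 2, limma). *Zscan12* stood at 51.6% (adjusted p = 0.0475, limma), a call that held only without WT replicate 1 or MSTN-KO replicate 1 among the 6 omissions and reached 0.168 without WT replicate 2. *Zfp322a* and *Arid4b*, a subunit of the Sin3 corepressor, stood at 42.5% and 47.8% of WT with adjusted p of 0.0554 and 0.0809 (limma). *Zfp322a* was called without WT replicate 2 or without MSTN-KO replicate 2 (adjusted p = 0.0148 for the latter, limma), and *Arid4b* without MSTN-KO replicate 1 (adjusted p = 0.0484, limma).

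*E2f3*, a transcription factor of the entry into S phase, varied more within the groups than between them. It had 37.7, 78.5 and 8.85 FPKM in WT and 7.7, 82.1 and 6.6 FPKM in MSTN-KO. Replicate 2 was highest in both groups, and the log2 fold change of -0.82 had a standard error of 0.80 (adjusted p = 0.506, limma). Without MSTN-KO replicate 2 it was -1.94 (adjusted p = 0.0214), and without WT replicate 2 it was -0.14 (adjusted p = 0.925). The list for the cell cycle and DNA repair held 4 genes, of which 3 were called lower. *E2f3* and *Cdk13* were on this list and on that of transcription and chromatin. *Gmnn*, the inhibitor of a second round of DNA replication, belonged to the cell cycle list. It had 32.2, 39.6 and 46.5 FPKM in WT and 19.2, 21 and 27.7 FPKM in MSTN-KO, without overlap (log2 fold change -0.77 ± 0.17, adjusted p = 0.00694, limma).

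Metabolic and mitochondrial enzymes numbered 9, all below 0, of which 8 were called lower, with a median log2 fold change of -0.78. *Cmah*, the hydroxylase that makes N-glycolylneuraminic acid, had 3.95, 3.57 and 3.65 FPKM in WT and 0.658, 0.849 and 0.452 FPKM in MSTN-KO. At 17.6% of WT it lay below the other members of this list, and its log2 fold change was -1.52 ± 0.16 (adjusted p = 4.28e-05, limma). *Cmah* reached 1 FPKM in WT only. *Mtr*, the methionine synthase, had 4.7, 3.98 and 3.69 FPKM in WT and 1.39, 1.85 and 1.6 FPKM in MSTN-KO (39.1% of WT). *Ggps1*, the synthase of the geranylgeranyl group that anchors small GTPases in membranes, had 5.94, 5.15 and 8.19 FPKM in WT and 2.75, 3.23 and 1.64 FPKM in MSTN-KO. It stood at 39.5% of WT without overlap (log2 fold change -1.08 ± 0.21, adjusted p = 0.00352, limma). *B3galnt2*, which glycosylates dystroglycan, and *Aldh5a1*, the succinic semialdehyde dehydrogenase, stood at 46.6% and 48.9%. *Mrs2*, a magnesium channel of mitochondria, stood at 60% (adjusted p = 0.0168, and 0.0615 without WT replicate 1, limma, also lost without MSTN-KO replicate 3). *Pitrm1*, a mitochondrial peptidase, stood at 67.9% (adjusted p = 0.0207, and up to 0.0814, limma, lost without WT replicate 2, WT replicate 3 or MSTN-KO replicate 3). *Gpld1*, a phospholipase that releases GPI-anchored proteins, had 2.18, 0.703 and 2.16 FPKM in WT and 1.1, 0.864 and 0.406 FPKM in MSTN-KO, with overlap through WT replicate 2 (adjusted p = 0.146, and 0.0275 without that library, limma).

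The secreted and signaling members were *Lgals8* and *Epdr1*, both called lower. *Lgals8*, a galectin that binds sugars on cell surfaces and damaged vesicles, had 16.9, 20 and 18.8 FPKM in WT and 10.6, 9.16 and 8.85 FPKM in MSTN-KO (log2 fold change -0.90 ± 0.14, adjusted p = 0.000818, limma). *Epdr1*, an ependymin-related secreted protein, had 26.1, 25.7 and 25.9 FPKM in WT and 12.5, 14 and 17.2 FPKM in MSTN-KO. Its WT libraries were nearly equal, and every MSTN-KO library lay well below them (56.3% of WT).

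The aldo-keto reductases had the lowest and one of the highest log2 fold changes among the members. *Akr1e1* and *Akr1c13* reached 1 FPKM in WT only and *Akr1c14* in MSTN-KO only, so these directions are tied to the minimum. *Akr1e1*, a reductase of the sugar derivative 1,5-anhydrofructose, had 2.66, 3.12 and 4.19 FPKM in WT and 0.33, 0.274 and 0.0924 FPKM in MSTN-KO. It stood at 6.99% of WT, and its log2 fold change of -1.80 ± 0.18 (adjusted p = 2.51e-05, limma) was the lowest of the 57. *Akr1c13* had 0.444, 0.963 and 1.0 FPKM in WT and 0.227, 0.0948 and 0.147 FPKM in MSTN-KO, without overlap (adjusted p = 0.035, limma). Among the 6 omissions of a library it was called only without WT replicate 1, and it reached 0.133 without WT replicate 2. *Akr1c14*, a hydroxysteroid dehydrogenase, had 0.371, 0.075 and 0.0392 FPKM in WT and 1.08, 1.49 and 0.24 FPKM in MSTN-KO. MSTN-KO replicate 3 lay below WT replicate 1, so the groups overlapped, with a log2 fold change of 0.69 ± 0.24 and an adjusted p of 0.0693 (0.0123 without MSTN-KO replicate 3, limma). Reads of *Akr1c13* may be shared with *Akr1c12*, whose transcript was 94.5% identical and which reached at most 0.433 FPKM.

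In the prolactin family, *Prl2c2* (a proliferin, a secreted relative of prolactin) had the highest level of all members. It had 333, 335 and 387 FPKM in WT and 347, 252 and 478 FPKM in MSTN-KO, so the MSTN-KO values lay on both sides of the WT values. Its log2 fold change was -0.01 ± 0.19 (adjusted p = 0.967, limma), and 0.15 with the correction for length and GC content, 0.06 without WT replicate 3 and 0.21 without MSTN-KO replicate 2. *Prl2c5* had 3.55, 3.17 and 3.23 FPKM in WT and 2.3, 1.57 and 1.92 FPKM in MSTN-KO, without overlap (log2 fold change -0.56 ± 0.16, adjusted p = 0.0288, limma). It was called only without MSTN-KO replicate 1 among the 6 omissions, and reached 0.0864 without WT replicate 2. Both values are uncertain, since the transcripts of *Prl2c2* and *Prl2c5* were 96% identical and that of *Prl2c2* was 99.5% identical to *Prl2c3*.

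The pseudogenes were copies of genes outside the members. *Gm2399*, whose 225 bases were 99.6% identical to *Nid1*, had 11.8, 63.1 and 0 FPKM in WT and 12.6, 13.6 and 31.9 FPKM in MSTN-KO. Its mean was lower in MSTN-KO, but its log2 fold change was 1.00 with a standard error of 1.0 (adjusted p = 0.52, limma). Without WT replicate 3 it was -0.61, and without WT replicate 2 it was 2.39 with an adjusted p of 0.0357. *Vdac3-ps1*, 99.5% identical to *Vdac3*, had 1.02, 1.4 and 0.982 FPKM in WT and 0.826, 1.84 and 1.22 FPKM in MSTN-KO (log2 fold change 0.09, and -0.08 with scaling to a common sum or without MSTN-KO replicate 2). *Vdac3* itself, on another chromosome, had 102, 109.7 and 128 FPKM in WT and 98.9, 117 and 130.3 FPKM in MSTN-KO. These values of *Vdac3-ps1* and its source gene overlapped between the groups.

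**Figure D4:**
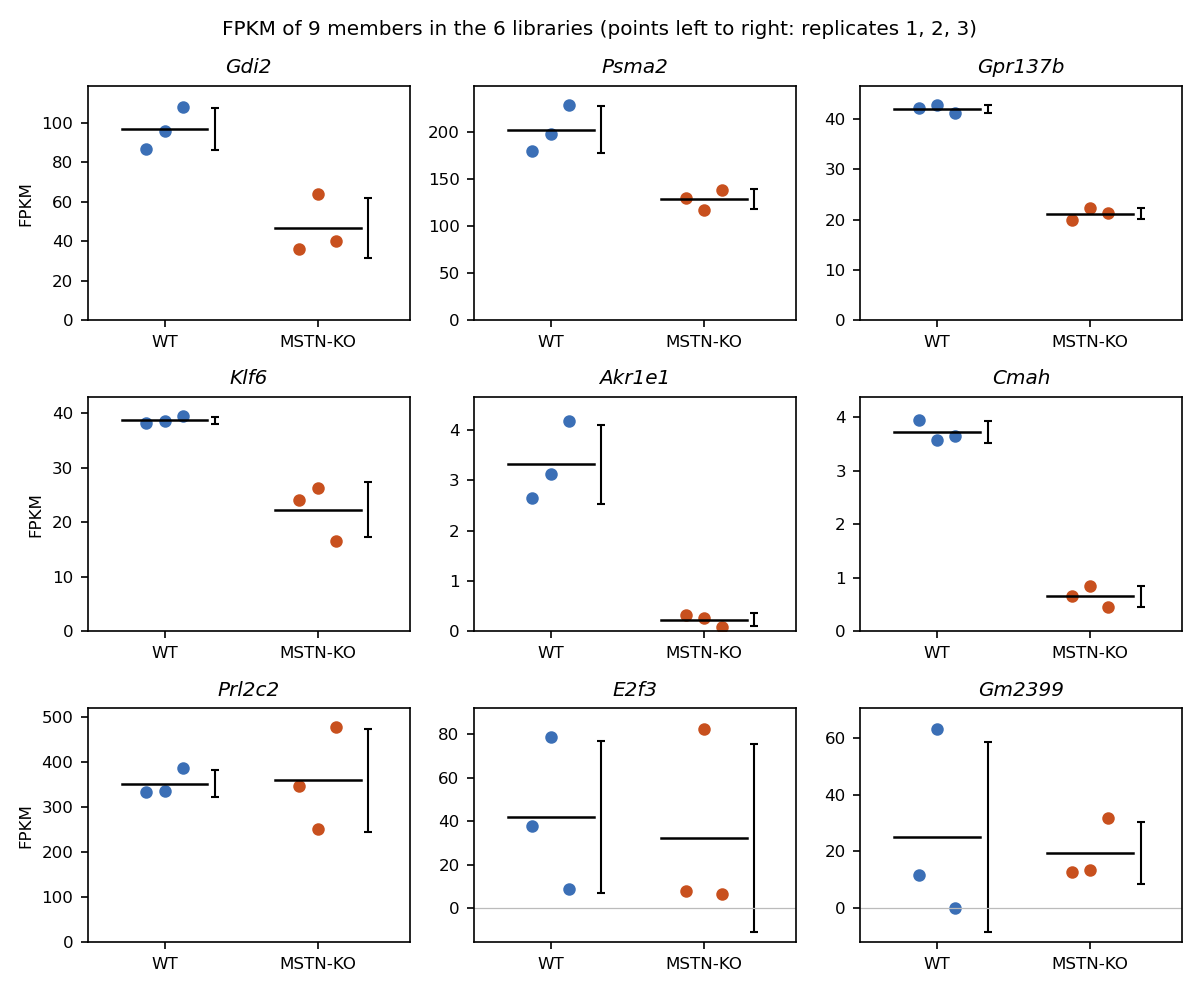
FPKM (vertical axes, linear) of 9 members in each library, with WT in blue and MSTN-KO in orange and points from left to right for replicates 1, 2 and 3. Horizontal lines are means and bars are ± 1 SD over 3 libraries. The groups are apart for *Gdi2*, *Psma2*, *Gpr137b*, *Klf6*, *Akr1e1* and *Cmah*, and overlap for *Prl2c2*, *E2f3* and *Gm2399*.

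On none of the lists were *BC005537*, *Dip2c*, *AW209491* and *Fam208b*, all called lower, beside the pseudogenes. *BC005537* had 46.5, 63.8 and 63.3 FPKM in WT and 31.7, 34.8 and 31.1 FPKM in MSTN-KO (56.2% of WT). *Dip2c* stood at 48.1%. *AW209491*, which lies within *Psma2* on the same strand and may share its reads, stood at 53.5% (adjusted p = 0.0185, and up to 0.084, limma, lost without WT replicate 2, WT replicate 3 or MSTN-KO replicate 3). *Fam208b*, which overlaps *Gdi2*, stood at 41.4% (adjusted p = 0.0427, limma). It was called only without MSTN-KO replicate 2 among the 6 omissions, and reached 0.154 without WT replicate 1. In all, 14 members overlapped another gene of the files, and whether the counting used the strand is not given in the sources used here.

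When each library was left out in turn, 30 of the 43 calls held in every case and 13 were lost in at least 1. The number called lower lay between 33 and 41. Without WT replicate 3, whose muscle genes were lowest of the WT libraries, it was 35 and the median log2 fold change was -0.70. The WT libraries then left are those with the higher muscle gene sums, so the part of these genes stayed untested. Over all alternatives run, 29 calls were kept in every one.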

How the data were processed

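RNA-seq libraries of C2C12 cells (3 WT, 3 MSTN-KO) were analyzed, grouped by the genotype in the labels. Libraries were read on an Illumina HiSeq, and the authors deposited FPKM values per gene, 1 file per library, with replicates not pooled. The submitters' processing notes name Bowtie 0.12.2 and mm8 without a role. The counting tool, annotation and gene filter are not given in the sources used here. FPKM is relative to the fragments of a library, so a few highly expressed genes can lower all others, and without counts no counting error could be given.

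Gene symbols, coordinates, exon lengths and base composition were taken from GENCODE M21 (GRCm38), matched by identifier for 14445 of 14548 (99.3%). For the 10837 genes that reached 1 FPKM in any library, log2(FPKM + 1) was modeled by group in limma 3.58.1 (R 4.3.3, eBayes with trend), with Benjamini-Hochberg adjusted p over all of them. The fit was also run on simulated data, with independent normal noise and changes given only to genes of higher WT level. The outcome is not reported here and does not cover members with low values. The members and lists were chosen with earlier results of these data known. Genes were named by the highest means, largest falls and rises, role lists, window borders and the limits of the rule. Transcripts with at least 90% identity over at least 50% of their length (blastn 2.17.0) counted as near copies. *BC005537*, *AW209491*, *Dip2c*, *Fam208b* and the head-to-head pairs were described after their values were seen.

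The alternatives were a pseudocount of 0.1, other filters, no trend, scaling (quantile, percentile 75, common sum of 1000000), a correction for length and GC content (mgcv 1.9.3), a replicate block alone or with this correction, other limits of the members, and leaving out each library. Tables and figures were made in Python 3.11.15 with numpy 2.4.6, pandas 2.3.3 and matplotlib 3.10.9.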

Additional observations from a re-analysis of the deposited data

How the results depend on the processing

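The median log2 fold change of the members stayed below 0 in every alternative run. It was -0.94 with a pseudocount of 0.1, -0.64 with the correction for length and GC content, -0.57 with the limit at 40000000 bases, and -1.0 with scaling to a sum of 1000000, where the median of all genes moved to -0.256. Among the 29 members with a mean of at least 5 FPKM, 24 were called lower, 3 met the study's criteria and 24, not all of them among those called, did not overlap between the groups. Those criteria gave 21 lower and 1 higher with a pseudocount of 0.1 and 28 lower with scaling to a sum of 1000000. A single member, *Akr1c14*, was called higher with quantile normalization or the length and GC correction, and 2 genes with the limit at 40000000 bases. The count called higher was also 1 (*Akr1c14*) with the replicate block, where 44 were called lower and *E2f3* had an adjusted p of 0.019 (limma), and 1 with the replicate block and the length and GC correction, where the median was -0.64. The replicate numbers did not pair the libraries (correlation of same-numbered deviations -0.0153, -0.128 and -0.142).

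Leaving out 1 library at a time gave 33 to 41 members called lower and a median of -0.81 to -0.65. It gave 0 to 1 called higher (*Gm2399* without WT replicate 2, *Akr1c14* without MSTN-KO replicate 3). Without overlap were 45 to 49 members. That count cannot fall when a library is left out, so it does not test the 45 of all libraries. The study's criteria gave 2 to 10 lower (10 without MSTN-KO replicate 2, 2 without MSTN-KO replicate 3) and 0 to 1 higher (1 without WT replicate 2). A few single members changed sign. *Prl2c2* was 0.149 with the length and GC correction, with or without the replicate block, and -0.244 to 0.215 with 1 library left out (0.0552 without WT replicate 3, 0.215 without MSTN-KO replicate 2). *Vdac3-ps1* was -0.0757 with scaling to a sum of 1000000 and -0.0803 to 0.238 with 1 library left out (lowest without MSTN-KO replicate 2). *Gm2399* was -0.615 to 2.39 with 1 library left out (lowest without WT replicate 3). None of these 3 was called in the settings that turned its sign, and the cause was not tested. Of the values for single members over all alternatives, those of called members were past the threshold in 622 cases and not in 65, and those of the other members passed it in 30 cases and not in 184 (beside the 7 of turned sign). Without the 6 members that have a near copy, an alternative chosen after seeing the data, 40 were called lower and the median was -0.78.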
